A study of Saccharomyces cerevisiae with 12 samples.

Results

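The difference between 2 strains of *S. cerevisiae* in their transcriptional response to rapamycin was measured gene by gene, as the log2 change from DMSO to rapamycin in *tup1Δ* minus the same change in WT. All 12 arrays of the series entered this comparison, which covered the 5769 genes with a value on every array. WT was BY4741, a laboratory strain that lacks *HIS3*, *LEU2*, *MET17* and *URA3* function, and *tup1Δ* was a single strain of the deletion collection in the same background that also lacks *TUP1*. Cells of both strains were at mid-log phase in YPD at 30°C and were given 100 nM rapamycin, or 0.1% DMSO as its solvent, for 30 min. WT was hybridized to 4 arrays per treatment and *tup1Δ* to 2 arrays per treatment. Each WT culture was divided between the treatments. For *tup1Δ* the study names 2 separate cultures and does not say plainly whether each was divided, so its replicate numbers may not pair the arrays. With 1 deletion strain, an effect of losing Tup1 cannot be told apart from any other difference that this strain carries. With 2 arrays in each of its groups, the spread within *tup1Δ* is poorly known.

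Tup1 forms a corepressor with Cyc8 that is brought to promoters by DNA-binding proteins and holds down many genes, among them genes repressed by glucose, stress genes, flocculins, hexose transporters and genes of cell type. Rapamycin, bound to Fpr1, inhibits the TORC1 kinase complex, which in rich medium promotes ribosome synthesis and keeps the transcription factors of nitrogen catabolite repression and of the general stress response out of the nucleus. Cells given the drug switch on permeases and enzymes for poor nitrogen sources and switch off ribosome biogenesis.

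The deposited values were log2 intensities normalized by Robust Multi-array Average (RMA), which gives the arrays nearly the same distribution (array medians from 11.48 to 11.52, all values from 7.85 to 15.52), so a shift common to the whole transcriptome would be hidden. *TUP1* (YCR084C) read between 13.66 and 14.04 on the 8 WT arrays and between 7.95 and 8.23 on the 4 *tup1Δ* arrays. *LEU2*, *URA3* and *MET17*, whose coding sequences are deleted in BY4741, read between 7.85 and 8.06 on all 12 arrays, which gives a measured floor. *HIS3*, of which this background keeps a part, read between 12.88 and 13.66. Levels near the floor are limits, since no detection flag was used, and a change there is understated.

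Most of the rapamycin response was shared by the strains. A gene was called when its limma adjusted p was below 0.05 and its change was 1 or more on the log2 scale in either direction. Rapamycin changed 762 genes in WT (13.2% of those tested), 312 of them higher (5.41%) and 450 lower (7.8%). In *tup1Δ* it changed 684 (11.9%), 308 of them higher (5.34%) and 376 lower (6.52%). Of these, 560 changed in both strains, 559 in the same direction. When the difference in response was tested directly, 67 genes (1.16%) were called at the same thresholds. In 45 of the 67 genes the difference was above 0 (0.78% of all genes), which means a higher rapamycin-to-DMSO ratio in *tup1Δ*, and in 22 it was below 0 (0.381%). Without the fold threshold, 333 genes (5.77%) had an adjusted p below 0.05, 201 of them higher (3.48%) and 132 lower (2.29%). The difference was under 1 in size in 98.7% of genes, and it had a median of 0.0 over all genes, a median absolute value of 0.14 and a median standard error of 0.12. Across all genes, the responses of the strains correlated at a Pearson r of 0.915, a description over 5769 genes that were measured on the same arrays and are not independent. A gene that changed in one strain only was seldom shown to differ. Of the 326 such genes, 52 were called for the difference, 19 of the 202 that changed only in WT and 33 of the 124 that changed only in *tup1Δ*.

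The 889 genes that changed in either strain, or that were called for the difference, were sorted by comparing the responses. The response was blunted in 29 genes, which were called for the difference and changed less in *tup1Δ*, and it was stronger in 34, which were called and changed more. It was opposite in 4 genes, which were called and had responses of opposite sign, each with an adjusted p under 0.05. Another 645 genes (72.6%) were additive, meaning that they were not called and that the 95% limma interval of their difference lay between -1 and 1. On the log2 scale, additive means that the fold changes of drug and deletion multiply. For most additive genes no effect of the deletion was called, since 609 of the 645 were called between the strains in neither treatment. Only 26 of the 645 were called between the strains in DMSO, and 20 of these were also called for the WT response. The other 177 genes were left unsorted, since they were not called but their intervals reached past 1 in size. Across all 5769 genes, 92.2% had an interval between -1 and 1. The smallest absolute difference among the called genes was 1.007, and the largest just under the fold threshold with an adjusted p under 0.05 was 0.989.

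**Figure D1:**
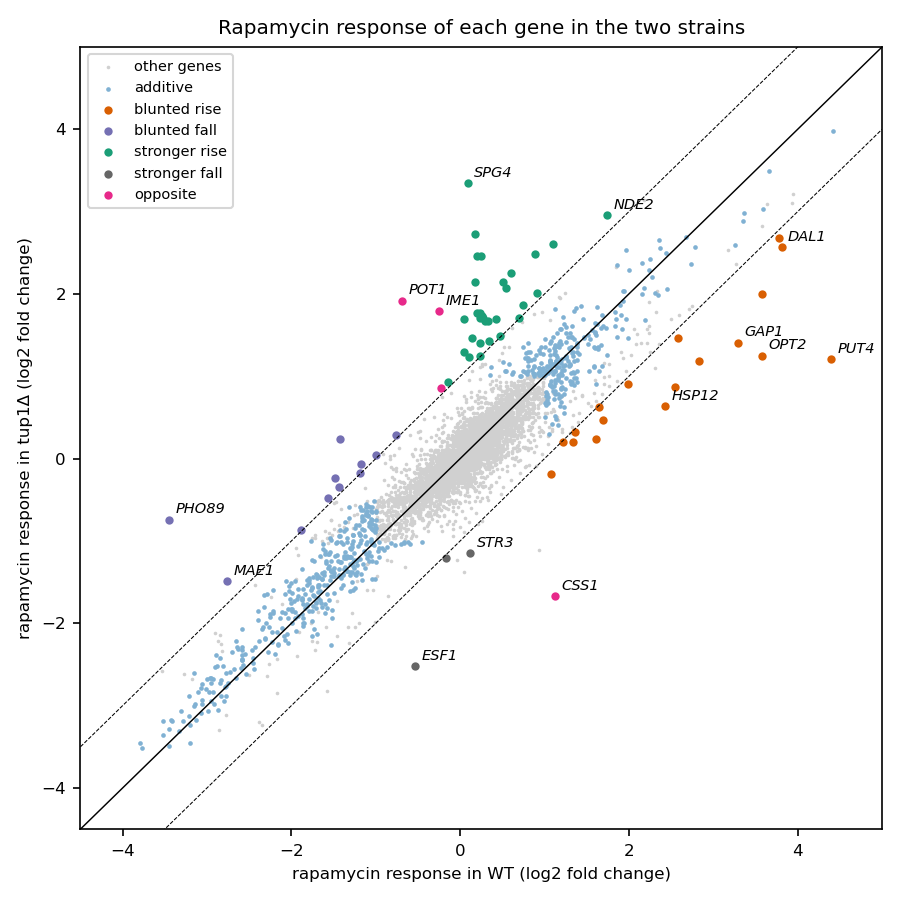
Log2 change from DMSO to rapamycin in WT (x axis) and in *tup1Δ* (y axis) for all 5769 genes, as differences of group means, with points colored by class. The solid line marks equal responses and the dashed lines mark differences of 1 either way. Most genes lie between the dashed lines, 29 called genes are blunted, 34 are stronger and 4 have responses of opposite sign.

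The largest blunted rises were those of the proline permease *PUT4*, the oligopeptide transporter *OPT2* and the general amino acid permease *GAP1*. There were 18 genes whose rise was smaller in *tup1Δ*, with a median response of 2.49 in WT and 0.89 in *tup1Δ*. *PUT4* (YOR348C), the high-affinity proline permease, had log2 values of 8.65, 8.66, 8.74 and 8.68 in WT in DMSO and of 13.12, 13.23, 13.03 and 12.95 in WT in rapamycin. In *tup1Δ* it read 13.11 and 12.95 in DMSO and 14.23 and 14.23 in rapamycin. The *tup1Δ* arrays in DMSO were thus as high as the WT arrays in rapamycin, and the *tup1Δ* arrays in rapamycin were the highest. The rise was 21.1-fold in WT and 2.31-fold in *tup1Δ*, a log2 difference of -3.2 (SE 0.11, adjusted p = 3.36e-08 from limma). On linear values the gain was instead larger in *tup1Δ*, by 2597 signal units, and the direction turned in this way for *HSP12*, *PUT1* and *GID11* as well, by 4763, 2250 and 1340.

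*GAP1* (YKR039W), the general amino acid permease, had the same order of groups in DMSO but reached the same level in rapamycin. It read 11.47, 11.52, 11.32 and 11.41 in WT in DMSO and 14.56, 14.65, 14.76 and 14.89 in WT in rapamycin, and 13.26 and 13.33 in *tup1Δ* in DMSO and 14.67 and 14.74 in *tup1Δ* in rapamycin. In DMSO the strains did not overlap, with *tup1Δ* higher by 1.86, and in rapamycin the *tup1Δ* arrays lay within the WT range, with a strain difference of -0.01 (adjusted p = 0.911 from limma). Its response differed by -1.88 (SE 0.13, adjusted p = 6.58e-06 from limma). In rapamycin its *tup1Δ* mean was above that of 99.5% of genes, and the part that this high level had in the difference was not tested.

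*OPT2* (YPR194C), an oligopeptide transporter, differed in the other treatment. Its values were 9.84, 10.09, 9.79 and 9.97 in WT in DMSO, 13.53, 13.60, 13.49 and 13.40 in WT in rapamycin, 9.55 and 9.42 in *tup1Δ* in DMSO, and 10.69 and 10.78 in *tup1Δ* in rapamycin. In rapamycin no *tup1Δ* array came near the WT arrays, and in DMSO the *tup1Δ* arrays were slightly the lower. The rise was 12.0-fold in WT and 2.37-fold in *tup1Δ* (difference -2.33, SE 0.12, adjusted p = 1.09e-06 from limma).

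*PUT1* (YLR142W), the proline oxidase of mitochondria, read 9.51, 9.46, 9.38 and 9.35 in WT in DMSO, 12.88, 12.84, 13.15 and 13.15 in WT in rapamycin, 11.72 and 11.64 in *tup1Δ* in DMSO, and 13.67 and 13.69 in *tup1Δ* in rapamycin. Like *PUT4* it was higher in *tup1Δ* in both treatments, with a gap of 2.26 in DMSO and 0.67 in rapamycin, and its response differed by -1.58 on the log2 scale. *AMD2* (YDR242W), a putative amidase, read 9.76 to 9.86 in WT in DMSO and 9.94 and 10.02 in *tup1Δ* in DMSO, but 12.45 to 12.81 in WT in rapamycin and 11.16 and 11.17 in *tup1Δ* in rapamycin. Its response differed by -1.65 (SE 0.13, adjusted p = 1.82e-05 from limma), and the strains were apart mainly in rapamycin, as for *OPT2*. *DAL1*, allantoinase, rose 14.0-fold in WT and 5.95-fold in *tup1Δ* (difference -1.24). *ASP3-1*, a cell-wall asparaginase that is 1 of several near-identical copies and so uncertain, differed by -1.10, and *CPS1*, a vacuolar carboxypeptidase, by -1.08.

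Stress genes were also among the blunted rises, and *HSP12*, *MSN4*, *HXK1* and *HOR7* were already called higher in *tup1Δ* without the drug. *HSP12* (YFL014W), a membrane-associated stress protein, read 9.11, 9.11, 9.36 and 9.34 in WT in DMSO, 11.12, 11.87, 11.86 and 11.80 in WT in rapamycin, 13.66 and 13.77 in *tup1Δ* in DMSO, and 14.31 and 14.40 in *tup1Δ* in rapamycin. Both *tup1Δ* groups were above every WT array, and the strain gap was 4.49 in DMSO and 2.69 in rapamycin. Its response differed by -1.79 on the log2 scale (SE 0.26, adjusted p = 0.00199 from limma). *MSN4*, a transcription factor of the general stress response, responded by 1.61 in WT and 0.24 in *tup1Δ*. For *HXK1*, a hexokinase, these values were 1.69 and 0.47, for *HOR7*, a gene of the osmotic response, 1.34 and 0.20, and for *MET13*, a methylenetetrahydrofolate reductase, 1.08 and -0.19. *GID11* (difference -1.11), YPL088W (-1.68), YJL213W (-1.01), *BSC5* (-1.03) and *HMX1*, the heme oxygenase (-1.02), completed the 18. YPL088W read 10.10 and 10.19 in WT replicates 1 and 2 in DMSO but 10.59 and 10.66 in replicates 3 and 4, and its adjusted p rose past 0.05 without any 1 of the 4 *tup1Δ* arrays (difference then -1.79 to -1.57).

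**Figure D2:**
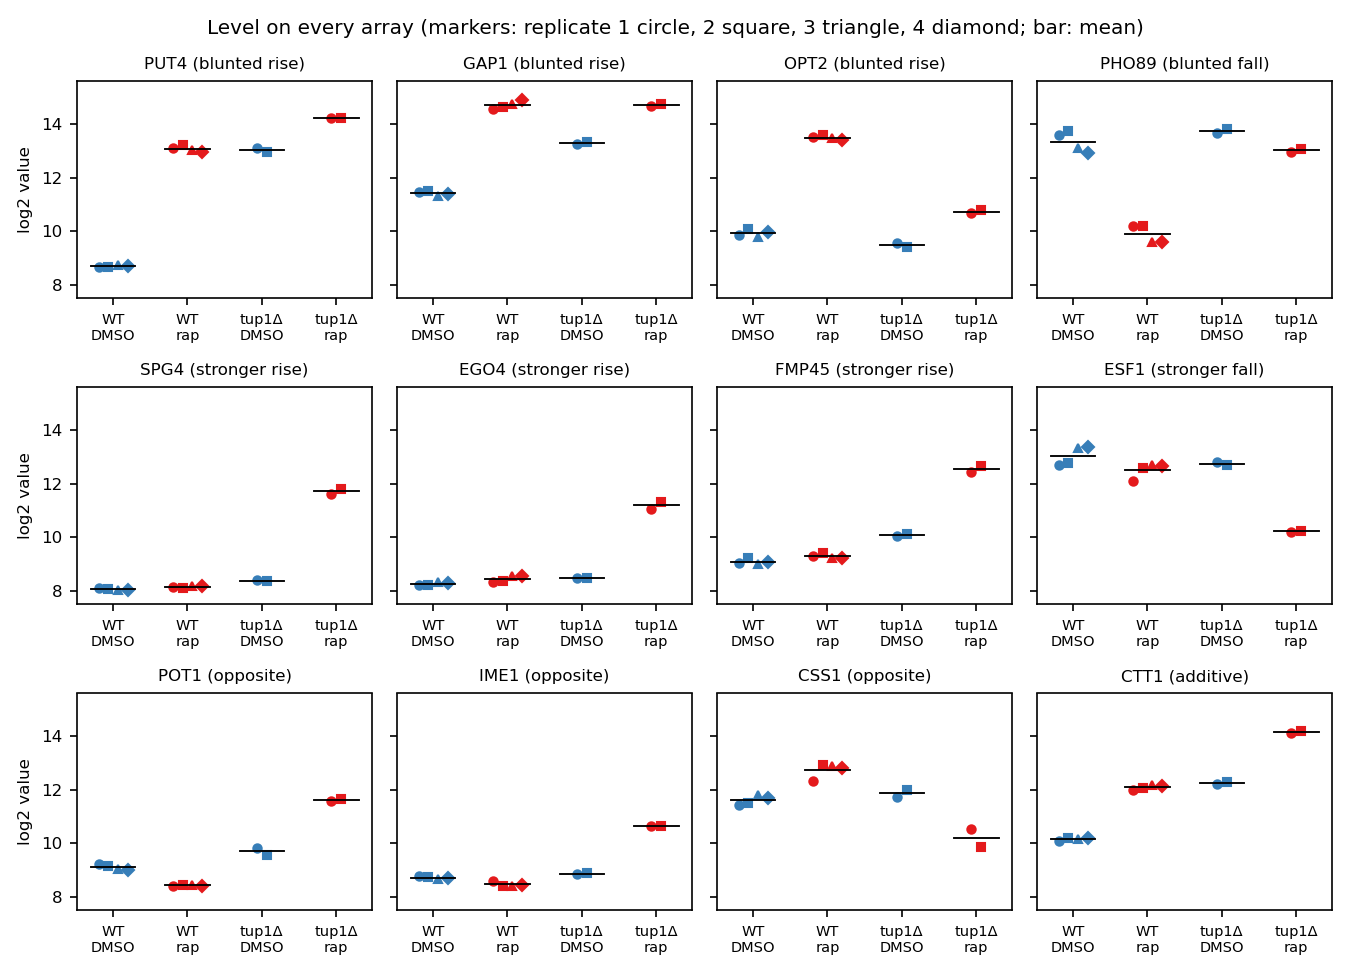
Log2 value on each of the 12 arrays (points) for 12 genes, by group, with the group mean as a bar. *PUT4*, *GAP1*, *OPT2* and *PHO89* are blunted, *SPG4*, *EGO4*, *FMP45* and *ESF1* are stronger, *POT1*, *IME1* and *CSS1* are opposite, and *CTT1* is additive, with a WT change of 1.93 and a *tup1Δ* change of 1.91.

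A blunted fall, with a WT response below 0 that was smaller in size in *tup1Δ*, was found in 11 genes, with a median response of -1.44 in WT and -0.23 in *tup1Δ*. *PHO89* (YBR296C), a sodium and phosphate cotransporter, read 13.59, 13.73, 13.12 and 12.94 in WT in DMSO, 10.18, 10.18, 9.61 and 9.60 in WT in rapamycin, 13.68 and 13.83 in *tup1Δ* in DMSO, and 12.98 and 13.06 in *tup1Δ* in rapamycin. Only the WT arrays in rapamycin stood apart, and WT replicates 1 and 2 were higher than replicates 3 and 4 in both treatments. The fall was 10.9-fold in WT and 1.67-fold in *tup1Δ* (difference 2.71, SE 0.33, adjusted p = 0.000616 from limma). *MAE1* (YKL029C), the mitochondrial malic enzyme, read 12.92, 13.03, 12.86 and 12.81 in WT in DMSO, 10.08, 10.31, 10.07 and 10.14 in WT in rapamycin, 13.16 and 13.15 in *tup1Δ* in DMSO, and 11.86 and 11.48 in *tup1Δ* in rapamycin. It fell in both strains, by 2.76 in WT and by 1.49 in *tup1Δ*, and the *tup1Δ* arrays in rapamycin lay between the other groups.

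YKR075C was the 1 blunted fall that was called between the strains in both treatments. It read 10.40, 10.49, 10.97 and 10.99 in WT in DMSO and 9.11, 9.13, 9.43 and 9.49 in WT in rapamycin, against 12.20 and 12.31 in *tup1Δ* in DMSO and 12.50 and 12.50 in *tup1Δ* in rapamycin. The strain gap therefore widened from 1.55 to 3.21, and the difference was 1.66 (SE 0.25, adjusted p = 0.00216 from limma). Enzymes and regulators followed. *SAM1*, an S-adenosylmethionine synthetase, fell 3.71-fold in WT and had a *tup1Δ* change of -0.87, and *SUT1*, a transcription factor of sterol uptake, fell 2.70-fold in WT and had a *tup1Δ* change of -0.35. YDL241W (difference 1.24), *OPT1*, an oligopeptide transporter (1.12), *SPS18* (1.10), *HMS2* (1.05), *SIR2*, the histone deacetylase of silent chromatin (1.04), and *COX19*, a factor for cytochrome oxidase assembly (1.01), were the rest. The WT fall of *HMS2* was not called, unlike that of the other blunted falls. *OPT1* had the highest adjusted p of the 67 genes, 0.0279 from limma.

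The stronger responses were mostly rises of genes that were dim in WT. In 31 genes the *tup1Δ* response was above 0 and larger in size than that of WT, with a median response of 0.26 in WT and 1.73 in *tup1Δ*. *SPG4* (YMR107W), a gene needed for survival in stationary phase, read 8.10, 8.06, 8.04 and 8.03 in WT in DMSO, 8.15, 8.09, 8.18 and 8.18 in WT in rapamycin, 8.38 and 8.35 in *tup1Δ* in DMSO, and 11.61 and 11.81 in *tup1Δ* in rapamycin. Both WT groups lay at the floor set by the deleted genes, and only the *tup1Δ* arrays in rapamycin were raised, 10.2-fold above their DMSO arrays. Its difference of 3.26 (SE 0.09, adjusted p = 4.33e-09 from limma) was the largest in size among the called genes. *EGO4* (YNR034W-A) had the same pattern, with 8.23, 8.22, 8.33 and 8.27 in WT in DMSO, 8.33, 8.35, 8.53 and 8.56 in WT in rapamycin, 8.46 and 8.46 in *tup1Δ* in DMSO, and 11.06 and 11.33 in *tup1Δ* in rapamycin (difference 2.55, SE 0.12, adjusted p = 5.76e-07 from limma). *FMP45* (YDL222C), a protein of the cell cortex, read 9.02, 9.21, 9.01 and 9.09 in WT in DMSO, 9.28, 9.41, 9.22 and 9.24 in WT in rapamycin, 10.06 and 10.11 in *tup1Δ* in DMSO, and 12.44 and 12.65 in *tup1Δ* in rapamycin. It rose by 2.46 in *tup1Δ* against a WT change of 0.20, and its strain gap widened from 1.00 to 3.26. YNL194C, which is related to *FMP45*, read 11.02 and 11.01 in *tup1Δ* in DMSO and 12.77 and 12.67 in *tup1Δ* in rapamycin, while its WT arrays stayed between 9.65 and 10.15.

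Some of these rises were in genes known for roles in respiration or in the use of nonfermentable carbon, a grouping made after the values were seen. Not all such genes rose more in *tup1Δ*. *COA2*, for cytochrome oxidase assembly, had a difference of -1.04, and of 14 listed glucose-repressed genes only *ADY2* was called for the difference. *SDH9* (YJL045W), a minor isozyme of succinate dehydrogenase, read 8.86, 8.98, 8.96 and 8.99 in WT in DMSO, 9.0, 9.04, 9.37 and 9.37 in WT in rapamycin, 8.93 and 9.16 in *tup1Δ* in DMSO, and 11.39 and 11.61 in *tup1Δ* in rapamycin. The strains overlapped in DMSO and were fully apart in rapamycin (difference 2.21, SE 0.17, adjusted p = 1.82e-05 from limma). *RGI2* (YIL057C), a gene of respiratory growth, had 8.73 to 8.94 in WT in DMSO, 8.76 to 9.32 in WT in rapamycin, 9.25 and 9.20 in *tup1Δ* in DMSO, and 11.27 and 11.47 in *tup1Δ* in rapamycin (difference 1.97). *COX26* (YDR119W-A), a subunit of respiratory supercomplexes, had 8.15 to 8.21 in WT in DMSO, 8.39, 8.46, 9.16 and 9.09 in WT in rapamycin, 9.17 and 9.15 in *tup1Δ* in DMSO, and 11.50 and 11.35 in *tup1Δ* in rapamycin (difference 1.66). *NDE2*, an external NADH dehydrogenase, rose in both strains, 3.34-fold in WT and 7.79-fold in *tup1Δ*. *ADY2*, an acetate transporter, rose 3.27-fold in *tup1Δ* with a WT change of 0.24, and *CYC7*, the minor isoform of cytochrome c, rose by 1.71 in *tup1Δ* with a WT change of 0.70.

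Among the other stronger rises, *NQM1*, a transaldolase, responded by 1.10 in WT and 2.61 in *tup1Δ*, and *OYE3*, an NADPH oxidoreductase, by 0.14 in WT and 1.47 in *tup1Δ*, on top of a strain gap that reached 3.59 in rapamycin. *SPS100*, a spore wall gene, responded by 0.04 and 1.30, *GIT1*, a glycerophosphoinositol permease, by 0.91 and 2.01, and *GAC1*, a subunit of the phosphatase of glycogen synthase, by -0.14 and 0.93. *HSP32*, *HSP33* and *SNO4* (differences 1.26, 1.37 and 1.56), *ERR1* and *ERR3* (1.54 and 1.44) and *HXT13* (1.17) belong to families of near-identical genes that could share probes, so that their separate values are uncertain. The remaining 10, *RTN2*, *HAB1*, *RTC3*, *CSR2*, YGR067C, YLR012C, *GID10*, *FMP16*, YKL107W and *MOH1*, had differences from 1.02 to 1.64.

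The level at which these rises started limits them as measurements. Of the 67 called genes, 34 lay in the dimmest 25% of genes by mean log2 value (below 10.22), and these included 25 of the 31 stronger rises. In 10 of the 31, both WT means lay within 0.5 of 8.23, the highest reading of a deleted gene, so that a WT response could have gone unseen there. Over all genes, 369 had both WT means in that range. Without the dimmest 25%, 32 genes were called, 14 of them higher.

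Only 3 genes had a stronger fall in *tup1Δ*. *ESF1* (YDR365C), a factor of 18S rRNA processing, read 12.71, 12.77, 13.33 and 13.37 in WT in DMSO, 12.12, 12.60, 12.69 and 12.65 in WT in rapamycin, 12.81 and 12.69 in *tup1Δ* in DMSO, and 10.21 and 10.25 in *tup1Δ* in rapamycin. It changed by -0.53 in WT and -2.52 in *tup1Δ*, where 54 genes of the small subunit processome had medians of -2.29 and -2.17. It was thus far from those genes in WT and near them in *tup1Δ*. The groups overlapped in DMSO, and the *tup1Δ* arrays in rapamycin were far below all others (difference -1.99, SE 0.29, adjusted p = 0.00213 from limma). *STR3*, a cystathionine beta-lyase, and *COA2*, a cytochrome oxidase assembly factor, went the other way about. They were higher in *tup1Δ* by 1.43 and 1.56 in DMSO, responded by 0.12 and -0.17 in WT, and fell by 1.15 and by 1.21 in *tup1Δ*, and for *STR3* the strain gap in rapamycin was 0.16.

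In 4 genes the responses had opposite signs. *POT1* (YIL160C), the thiolase of peroxisomal fatty acid oxidation, read 9.23, 9.16, 9.04 and 9.0 in WT in DMSO, 8.39, 8.44, 8.45 and 8.40 in WT in rapamycin, 9.82 and 9.56 in *tup1Δ* in DMSO, and 11.57 and 11.64 in *tup1Δ* in rapamycin. Rapamycin moved every WT culture down and both *tup1Δ* replicates up, with responses of -0.69 and 1.92 (difference 2.60, SE 0.12, adjusted p = 3.08e-07 from limma). *IME1* (YJR094C), the master regulator of entry into meiosis, read 8.77, 8.73, 8.66 and 8.68 in WT in DMSO, 8.59, 8.41, 8.41 and 8.43 in WT in rapamycin, 8.84 and 8.87 in *tup1Δ* in DMSO, and 10.64 and 10.65 in *tup1Δ* in rapamycin. Its WT response of -0.25 was small and close to the floor, and its *tup1Δ* response was 1.79 (difference 2.04, SE 0.09, adjusted p = 2e-07 from limma).

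*CSS1* (YIL169C) was the opposite gene that went down in *tup1Δ*. It read 11.44, 11.52, 11.80 and 11.70 in WT in DMSO, 12.34, 12.94, 12.89 and 12.83 in WT in rapamycin, 11.74 and 11.98 in *tup1Δ* in DMSO, and 10.54 and 9.85 in *tup1Δ* in rapamycin. It rose by 1.13 in WT and fell by 1.67 in *tup1Δ*, where its values in rapamycin were the most spread (difference -2.80, SE 0.29, adjusted p = 0.000169 from limma). *TKL2* (YBR117C), a minor transketolase, read 9.44 to 9.72 in WT in DMSO, 9.24 to 9.41 in WT in rapamycin, 10.04 and 10.09 in *tup1Δ* in DMSO, and 10.86 and 10.98 in *tup1Δ* in rapamycin, with responses of -0.23 and 0.86 that were both under the fold threshold.

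Additive responses included genes that both the deletion and the drug raised strongly. *CTT1* (YGR088W), the cytosolic catalase, read 10.10, 10.20, 10.15 and 10.19 in WT in DMSO, 11.98, 12.06, 12.18 and 12.14 in WT in rapamycin, 12.23 and 12.28 in *tup1Δ* in DMSO, and 14.14 and 14.20 in *tup1Δ* in rapamycin. WT in rapamycin and *tup1Δ* in DMSO were close to each other, and both changes together gave the highest arrays. Rapamycin raised *CTT1* 3.82-fold in WT and 3.77-fold in *tup1Δ*, with a difference of -0.02 and a 95% limma interval from -0.21 to 0.17. *DDR2*, a stress gene, read 8.46 to 8.55 in WT in DMSO, 10.98 to 11.26 in WT in rapamycin, 10.50 and 10.53 in *tup1Δ* in DMSO, and 13.05 and 13.35 in *tup1Δ* in rapamycin. It rose 6.39-fold in WT and 6.43-fold in *tup1Δ* (interval of the difference from -0.29 to 0.31). *CTT1* and *DDR2* thus responded alike to within these intervals, while *HSP12*, also a stress gene that was high in *tup1Δ*, was blunted.

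The additive genes that were most changed by both deletion and drug also held *GDB1*, the glycogen debranching enzyme, with a difference of -0.17, and *PRX1*, a mitochondrial peroxiredoxin, with -0.33. *ARG1*, argininosuccinate synthetase, and *ARO10*, phenylpyruvate decarboxylase, were lower in *tup1Δ* in DMSO, by 1.31 and 1.58 on the log2 scale, and rose in both strains, with differences of 0.05 and -0.38. YHR033W and *ALT2*, a homolog of alanine transaminase, were higher in *tup1Δ* in DMSO and fell in WT, with differences of 0.35 and 0.73. *ALT2* shows the limit of the sorting, since its difference had an adjusted p of 0.0008 from limma and missed only the fold threshold. Of the 645 additive genes, 52 had an adjusted p under 0.05. *ASN1*, an asparagine synthetase, had responses of 0.30 and 0.41 that were under the fold threshold, and a difference of 0.12 (adjusted p = 0.415 from limma).

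Where the strains were apart differed by class. In DMSO, 264 genes (4.58%) were called between the strains, 238 higher in *tup1Δ* (4.13%) and 26 lower (0.451%), and in rapamycin 311 were called (5.39%), 261 of them higher (4.52%) and 50 lower (0.867%). Of the 67 genes with different responses, 33 were called between the strains in rapamycin only, 8 in DMSO only, 17 in both and 9 in neither. The blunted rises had a median gap of 1.57 in DMSO and 0.16 in rapamycin. The second median mixes gaps above 0, as for *HSP12*, with gaps below 0, as for *OPT2*. Of the 18, 5 were called in rapamycin only, with *OPT2* and *AMD2* among them, and 4 were called in both treatments. In 9 of the 18 the gap in rapamycin was under 1 in size. The blunted falls had median gaps of 0.22 and 1.35, and the stronger rises of 0.73 and 2.36. Of the 31 stronger rises, 17 were called in rapamycin only and 12 in both treatments. The gap and the difference share arrays, so these values describe where a difference lay and are not a second test of it.

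**Figure D3:**
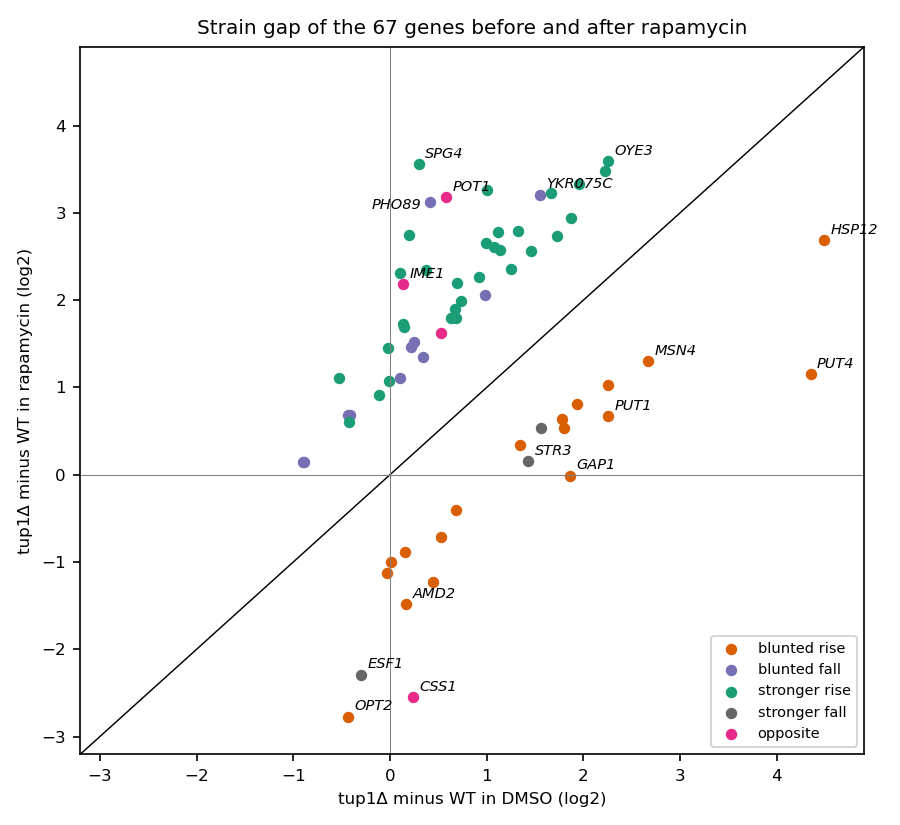
Strain gap (*tup1Δ* minus WT, log2) in DMSO (x axis) and in rapamycin (y axis) for the 67 genes called for the difference, colored by class, with thin lines at 0. Points below the solid line of equal gaps had a lower response in *tup1Δ*. *PUT4* moves from 4.35 to 1.15 and *OPT2* from -0.43 to -2.77, and the stronger rises lie above the line.

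Genes that *tup1Δ* expressed more in DMSO did not all respond alike. Of the 238, rapamycin raised 51 in WT, and of these 14 were additive, 27 unsorted and 10 blunted, with none stronger or opposite. The 10 were *GAP1*, *GID11*, *HOR7*, *HSP12*, *HXK1*, *MET13*, *MSN4*, *PUT1*, *PUT4* and YJL213W. Over the 51 genes, the median strain gap was 1.52 in DMSO and 0.81 in rapamycin, and the median response was 1.68 in WT and 0.99 in *tup1Δ*. Another 181 of the 238 were not called for the WT response, and 14 of them had a stronger response in *tup1Δ*. Of the 259 genes that rapamycin raised in WT and that were not called between the strains in DMSO, 198 were additive, 50 unsorted, 8 blunted, 2 stronger and 1 opposite. The strain gap in DMSO, the WT response and the difference all use the DMSO arrays, and chance in those arrays would by itself lower the difference of genes that were high in *tup1Δ* in DMSO, so no test of these counts is given.

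Nitrogen pathways were described with lists of their members. All but 1 of 10 permeases under nitrogen catabolite repression rose in each strain, with a median response of 3.43 in WT and 2.29 in *tup1Δ*. Over all genes, 5.41% rose in WT and 5.34% in *tup1Δ*, and 1.16% were called for the difference. The difference had a median of -0.65 in this list, against 0.0 over all genes, and *PUT4* and *GAP1* were called. It was not shared evenly, since *AGP1*, a broad amino acid permease, and *MEP1*, an ammonium permease, had differences of -0.06 and 0.03. In allantoin catabolism, with 4 genes, the median difference was -0.69 and *DAL1* was called. Among 11 genes for enzymes of proline, arginine, GABA and glutamate, which include *GDH1*, *GLT1* and *GLN1* of glutamate and glutamine synthesis, the median was -0.21. In this list *PUT1* was called, while *UGA2*, *UGA1* and *GDH2*, which degrade GABA and glutamate, had differences of -0.97, -0.90 and -0.88 and were unsorted. None of the 5 GATA factor genes and their regulators was called (median -0.35), a count near the share over all genes. Of these, *DAL80*, the GATA repressor, responded by 3.36 in WT and 2.98 in *tup1Δ* and was additive.

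Genes of ribosome biogenesis fell in both strains, where 7.8% of all genes fell in WT and 6.52% in *tup1Δ*. Over all genes, 1.16% were called for the difference. Of 54 genes of the small subunit processome, 52 fell in each strain, with a median response of -2.29 in WT and -2.17 in *tup1Δ*. Of the 54, 45 were additive and *ESF1* alone was called for the difference. *ESF1* changed by -0.53 in WT and -2.52 in *tup1Δ*, so it was far from the list median in WT only. Of 57 assembly factors of the large subunit, 54 fell in WT and 53 in *tup1Δ*, 45 were additive and 0 were called for the difference. Of 20 genes of RNA polymerases I and III, which are subunits and the initiation factor *RRN3*, 17 fell in each strain and 0 were called for the difference. Counts of 0 or 1 in lists of this size are near the share over all genes, and they do not show equal responses. The median difference changed sign with the WT replicates used, from -0.07 with replicates 1 and 2 to 0.28 with replicates 3 and 4 for the processome, and from -0.11 to 0.26 for the large subunit. Ribosomal protein genes fell less. Of 131, 67 fell in WT and 20 in *tup1Δ*, with a median response of -1.0 in WT and -0.61 in *tup1Δ*. The WT median lay at the fold threshold, so that a small difference moves many genes across it. The difference ranged from -0.15 to 0.84 with a median of 0.36, and 128 of the 131 were above 0, as were 2858 of all 5769 genes. Again 0 were called for the difference, and 5 had an adjusted p under 0.05. This value moved with the WT cultures, whose median responses were -0.84 and -0.82 for replicates 1 and 2 and -1.18 and -1.19 for replicates 3 and 4, against -0.55 and -0.69 in *tup1Δ*. With WT replicates 1 and 2 alone the median difference was 0.20, and with replicates 3 and 4 alone it was 0.53 with 6 genes called.

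**Figure D4:**
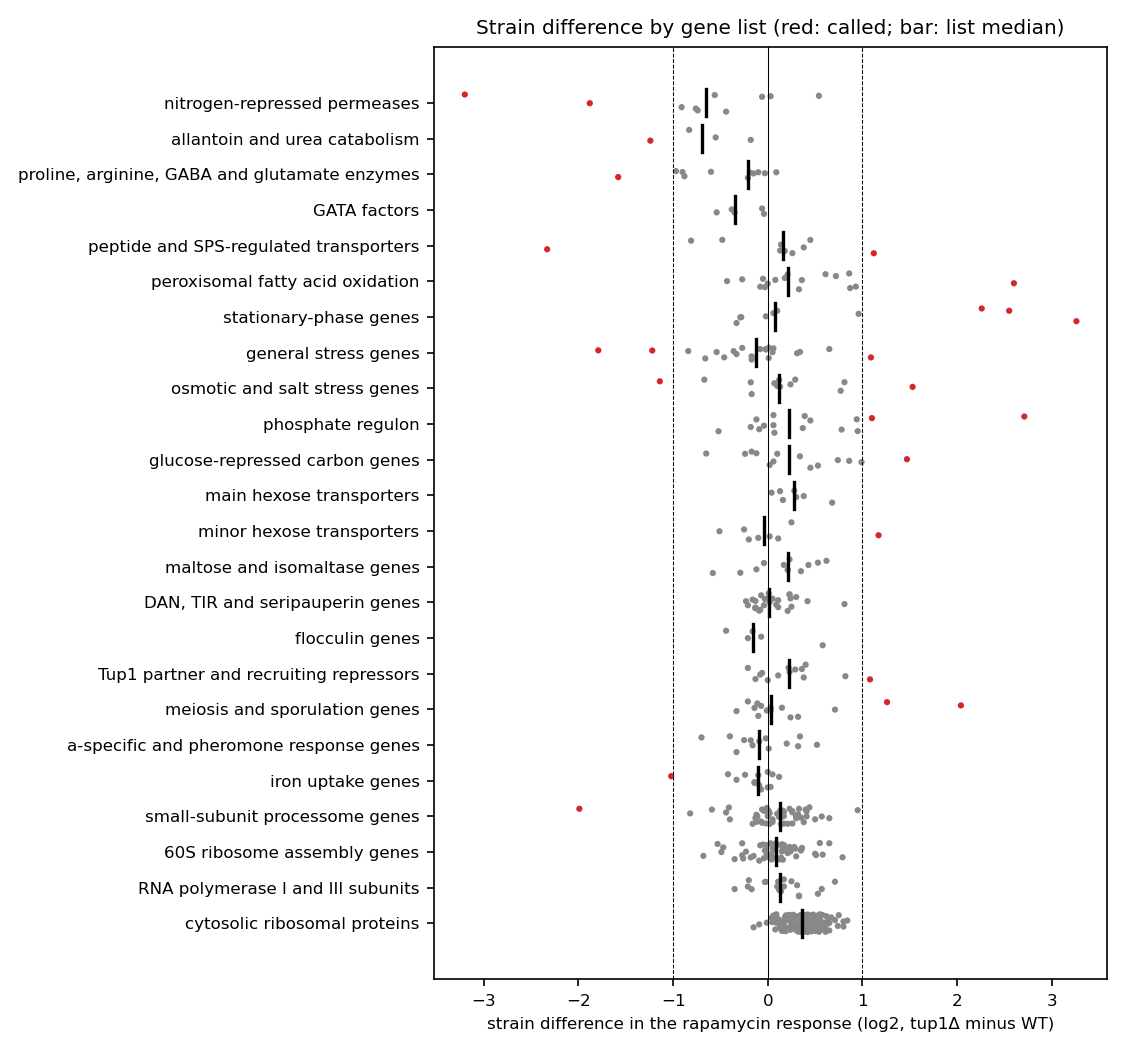
Rapamycin response of *tup1Δ* minus that of WT (log2) for the measured members of each gene list, 1 point a gene, with genes called for the difference in red and the list median as a bar. The medians of the nitrogen permeases and of allantoin catabolism lie at -0.65 and -0.69, that of the ribosomal proteins at 0.36 with 0 genes called, and most other lists lie near 0.

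Among genes of carbon use, 17 peroxisomal and fatty acid oxidation genes had a median difference of 0.21, and 8 rose in *tup1Δ* against 2 in WT. Over all genes, 5.41% rose and 7.8% fell in WT, 5.34% rose and 6.52% fell in *tup1Δ*, and 1.16% were called for the difference. The 8 and the 2 are calls at a threshold, and of the 17 only *POT1* was called for the difference. *CAT2*, a carnitine acetyltransferase, *PXA1*, a fatty acid importer, and *POX1*, the acyl-CoA oxidase, had differences of 0.93, 0.87 and 0.86 and were unsorted. The difference was above 0 in 11 of the 17, and the lowest was that of *ANT1*, -0.43. Of 14 glucose-repressed genes, *ADY2* was called for the difference (median 0.22), and 10 were called neither for it nor for a response in either strain. *ACS1*, an acetyl-CoA synthetase, had a difference of 0.99 and was unsorted. The difference was above 0 in 10 of the 14, and the lowest was that of *MLS1*, -0.65. Of 16 genes of phosphate uptake and storage, 6 fell and 1 rose in WT while 2 rose and 0 fell in *tup1Δ*. These counts too are calls at a threshold. The median response of the list was -0.56 in WT and -0.44 in *tup1Δ*, with a median difference of 0.22. *PHO89* and *GIT1* were called for the difference, and *PHO11* and *PHO12*, near-identical acid phosphatase genes, had differences of 0.94 and 0.95 with adjusted p-values of 0.175 and 0.186 from limma.

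Stress lists had calls in both directions. Of 22 general stress genes, 11 rose in WT, and 7 rose and 1 fell in *tup1Δ*. Over all genes, 5.41% rose in WT, 5.34% rose and 6.52% fell in *tup1Δ*, and 1.16% were called for the difference. *HSP12* and *HXK1* were called lower and *TKL2* higher for the difference (list median -0.12). Of 13 osmotic stress genes, *HOR7* was called lower and *RTC3* higher (median 0.12). Of 10 genes of stationary phase, *SPG4*, *EGO4* and *FMP45* were called higher, while the list median was 0.08. This list was written with earlier results of these data known, so its share of calls may reflect how its members were chosen. Of 15 meiosis and sporulation genes, *IME1* and *SPS100* were called higher (median 0.03).

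Other families, among them known Tup1 targets, were counted against the 1.16% of all genes called for the difference. None of 27 DAN, TIR and PAU genes, 11 MAL genes, 7 main hexose transporter genes, 5 flocculin genes or 13 a-specific genes was called for the difference, and their median differences were 0.01, 0.21, 0.28, -0.16 and -0.09. Of 8 minor hexose transporter genes, *HXT13* was called. Of 14 genes for the corepressor and the DNA-binding proteins that recruit it, *SUT1* was called (median 0.22). Of 15 genes of the iron regulon, *HMX1* was called lower (median -0.10). A gene that was not called for the difference is not thereby shown to respond alike in the strains.

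**Figure D5:**
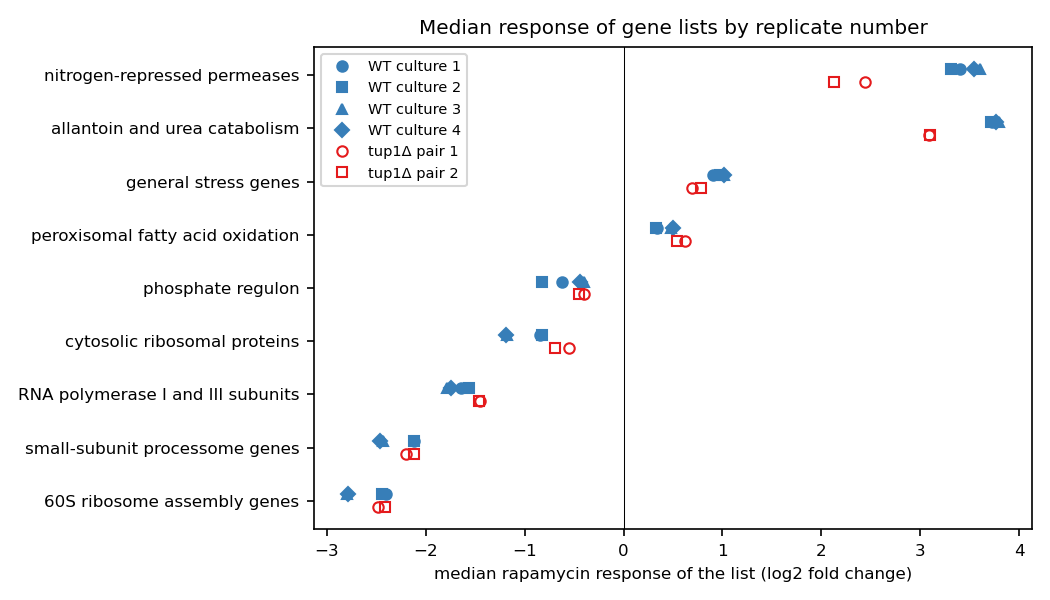
Median log2 response of 9 gene lists for each replicate number, rapamycin minus DMSO, with 4 WT cultures and 2 *tup1Δ* replicates as points. The nitrogen permeases lie between 3.31 and 3.60 in WT and at 2.44 and 2.13 in *tup1Δ*. For ribosomal proteins, WT replicates 3 and 4 lie below WT replicates 1 and 2.

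The response was also taken for each replicate number, as rapamycin minus DMSO, which follows the culture in WT. In all 67 called genes, the values of the 2 *tup1Δ* replicates lay outside the range of the 4 WT cultures, as they did in 2369 of all genes (41.1%). For a single gene, an exact permutation test of 4 against 2 cannot give a two-sided p below 0.0667, so the calls rest on limma, which shares information on the spread across genes. Leaving out each array in turn gave 57 to 72 calls. The call of 20 of the 67 genes was lost in at least 1 of these fits, and the 2 fits that lost the most, without *tup1Δ* DMSO replicate 1 and without *tup1Δ* rapamycin replicate 2, each kept 55 of the 67.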

How the data were processed

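Per the labels and the methods, Cy3-labeled cDNA was hybridized to one-color NimbleGen arrays, and the intensities were normalized by RMA in a set that included other arrays of the laboratory. The authors deposited log2 values, 1 per gene on each array. The other arrays of that set were not used here. Of 5872 entries, 103 were empty on every array, which left 5769 genes, and 5763 of these matched the symbols of an R64 table. A model with the 4 groups as its terms was fitted to the deposited log2 values as they stood, using limma 3.58.1 under R 4.3.3, and variances were moderated with eBayes (8 residual and 2.8 prior degrees of freedom). Benjamini-Hochberg adjustment ran over all 5769 genes. A call needed an adjusted p below 0.05 and a log2 value of 1 or more in size. The number of arrays limits the precision.

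The gene lists and the genes described were chosen with earlier results of these data known, and the lists came from general knowledge. Named genes were *TUP1*, *GAP1* and *ASN1*, the 8 largest differences in each of the blunted, stronger and opposite classes, the 8 additive genes most changed by both deletion and drug, and list members called for the difference. The other called genes, and other list members, were named after their values were seen. Promoter sequences were not analysed here.

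WT arrays with the same number come from one culture. Once the group means were removed, these pairs correlated at 0.745, 0.119, 0.531 and 0.535 for replicates 1 to 4, and those of *tup1Δ*, for which a shared culture is not plainly stated, at 0.064. The alternatives were quantile normalization, centring on medians, a filter on dim genes, an intensity trend with a robust prior, a replicate block, subsets or averages of WT replicates, leaving out each array, linear values and other thresholds.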

Additional observations from a re-analysis of the deposited data

Results flagged for a closer look

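The test of the difference between the strains singled out 67 genes, each with the log2 difference in its rapamycin response (*tup1Δ* minus WT). The blunted rises were *PUT4* (-3.2), *OPT2* (-2.33), *GAP1* (-1.88), *HSP12* (-1.79), YPL088W (-1.68), *AMD2* (-1.65), *PUT1* (-1.58), *MSN4* (-1.37), *MET13* (-1.27), *DAL1* (-1.24), *HXK1* (-1.22), *HOR7* (-1.14), *GID11* (-1.11), *ASP3-1* (-1.10), *CPS1* (-1.08), *BSC5* (-1.03), *HMX1* (-1.02) and YJL213W (-1.01). The blunted falls were *PHO89* (2.71), YKR075C (1.66), *MAE1* (1.27), YDL241W (1.24), *OPT1* (1.12), *SPS18* (1.10), *SUT1* (1.08), *HMS2* (1.05), *SIR2* (1.04), *SAM1* (1.02) and *COX19* (1.01). The stronger rises were *SPG4* (3.26), *EGO4* (2.55), *FMP45* (2.26), *SDH9* (2.21), *RGI2* (1.97), *COX26* (1.66), YNL194C (1.66), *RTN2* (1.64), *HAB1* (1.6), *SNO4* (1.56), *ERR1* (1.54), *RTC3* (1.53), *NQM1* (1.51), *CSR2* (1.47), *ADY2* (1.47), *ERR3* (1.44), *HSP33* (1.37), *OYE3* (1.33), YGR067C (1.33), *HSP32* (1.26), *SPS100* (1.26), *NDE2* (1.22), *HXT13* (1.17), YLR012C (1.12), *GIT1* (1.10), *GID10* (1.10), *FMP16* (1.09), *GAC1* (1.07), *MOH1* (1.02), *CYC7* (1.02) and YKL107W (1.02). The stronger falls were *ESF1* (-1.99), *STR3* (-1.28) and *COA2* (-1.04), and the opposite responses were *POT1* (2.60), *IME1* (2.04), *TKL2* (1.09) and *CSS1* (-2.80).

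Among the named genes, 1 array of a WT group stood apart from the other 3 in 9 of 154 groups of 4, where chance gives about 1 in 20, or 7.7. The gap to the nearest array, as a share of the group's range, was 0.848 for *ESF1*, 0.908 for *HSP12*, 0.858 for *IME1* and 0.868 for *BSC5* on WT rapamycin replicate 1. It was 0.986 for *DDR2* on WT rapamycin replicate 2, 0.832 for *HSP32* on WT DMSO replicate 1, 0.853 for *BSC5* on WT DMSO replicate 2, and 0.841 for YGR067C and 0.865 for *HSP33* on WT DMSO replicate 4. *HSP12* read 11.12 on WT rapamycin replicate 1 against 11.80 to 11.87 on the others.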

How the results depend on the processing

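Every called difference kept its direction under each log2 setting in which the gene was fitted. On linear values, those of *HSP12* (4763), *PUT4* (2597), *PUT1* (2250) and *GID11* (1340) were above 0, since a smaller fold change from a higher start was a larger gain in signal. The fold threshold set the counts. With none, 333 genes were called (201 higher, 132 lower), with 3593 additive, 177 blunted, 130 stronger and 26 opposite, and at a log2 threshold of 1.5, 26 were called (17 higher, 9 lower), with 305 additive, 9 blunted and 14 stronger. Without the dimmest 25% of genes, 32 were called (14 higher), with 5 stronger and 2 opposite. With a replicate block that also pairs the *tup1Δ* arrays by number, 71 were called, with all 67 among them, and 7 were opposite, and the block ended no call. WT replicates 1 and 2 alone gave 77 calls, with 93 unsorted and 8 opposite. WT replicates 3 and 4 alone gave 99 calls, 47 of them lower, with 62 blunted, 82 unsorted and 8 opposite. Each pair kept 58 of the 67 calls. Apart from the thresholds, the cause of these moves was not tested. Quantile normalization gave 68 calls, centring 67, the trend and robust prior 68, WT averaged in pairs 60, and an adjusted p under 0.01 gave 64.

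With each array left out in turn, 57 to 72 genes were called, 39 to 46 higher and 17 to 27 lower, with 572 to 666 additive, 143 to 247 unsorted, 25 to 33 blunted, 27 to 37 stronger and 4 to 7 opposite, the last without WT rapamycin replicate 1. Leaving out any of the 12 arrays ended at least 1 call and up to 12. The 20 genes that lost a call were *ASP3-1*, *BSC5*, *COA2*, *COX19*, *CYC7*, *FMP16*, *GAC1*, *GID10*, *HMS2*, *HMX1*, *HXK1*, *MOH1*, *NDE2*, *OPT1*, *SAM1*, *SIR2*, YJL213W, YKL107W, YLR012C and YPL088W.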
